A study of Homo sapiens with 6 samples.

Results

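Oxidative phosphorylation is carried out by 5 protein complexes of the inner mitochondrial membrane, and their nuclear-encoded subunit genes were examined in Huh7-R cells treated with fostamatinib or DMSO vehicle. Members were taken by gene symbol: NDUFA, NDUFB, NDUFC, NDUFS or NDUFV with a number and NDUFAB1 (complex I), SDHA to SDHD (complex II), UQCR (complex III), the structural COX4I to COX8 genes (complex IV) and ATP5 (complex V), with assembly factors and pseudogenes left out. This rule gave 77 of the 16305 genes measured, of which 37 belonged to complex I, 4 to complex II, 9 to complex III, 11 to complex IV and 16 to complex V. It used no measured value. NDUFA4 was counted with complex I by its symbol, although its protein is known as a part of complex IV, and the rule also took in UQCRHL, an intronless copy of UQCRH, and ATP5S, now named DMAC2L. 6 pseudogenes with matching symbols were left out, and COX4I2, COX6A2, COX6B2, COX7A1, COX7B2, COX8C, ATP5MGL and NDUFA7 were not analysed here.

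Complexes I to IV pass electrons from NADH and succinate to oxygen and, except for complex II, pump protons across the inner membrane, and complex V (ATP synthase) uses the return of those protons to make ATP. Most subunits are encoded in the nucleus and imported, while a small core set is encoded by the mitochondrial genome, so each complex but complex II needs both genomes. Hepatocytes are rich in mitochondria and draw much of their ATP from this pathway.

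The Huh7 line comes from a human hepatocellular carcinoma, and Huh7-R (labelled Huh7SR) is a resistant pool, not a clone, obtained from it by long exposure to the kinase inhibitor sorafenib, which was withdrawn some days before experiments. Both groups carry this resistance, and parental cells are not part of the comparison. Fostamatinib is the prodrug of an inhibitor of spleen tyrosine kinase (SYK), although the study detected no SYK protein in Huh7 cells. Poly(A)-selected RNA was sequenced from 3 samples exposed to fostamatinib and 3 to DMSO, each for 24 h at a labelled 2 µM, a dose that the labels write for DMSO too. The labels state triplicate treatments but not separate cultures, so the spread between samples, on which the p-values rest, may be technical.

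Values were log2 CPM (reads scaled to a common library size, on a log2 scale), and a difference is the fostamatinib mean minus the DMSO mean (n = 3 each) with its standard error (SE), so each one is relative to all reads of a sample. A gene was called higher or lower at an adjusted p under 0.05 in a linear model fitted with limma to all genes. This fit moderates variances, so SE and p draw mostly on spread pooled over genes of like abundance, less on the gene's own samples. The median total degrees of freedom were 33.9, of which 4 come from the gene's own samples. Samples held 13303451 to 15272737 reads on the listed genes. The response was broad: 47.8% of all genes were called, 23.3% higher and 24.5% lower, and 54.1% had fostamatinib samples all above or all below the DMSO samples. All 8 hepatocyte or hepatoma markers examined were present and were called higher, among them ALB (8568, 9734 and 9712 reads with DMSO), while PTPRC, CD74 and LAPTM5 of leukocytes and CDH5, VWF and DCN of vessels and stroma were not analysed here. PECAM1, of endothelium, and the stromal genes COL1A2 and LUM differed between the groups (log2 differences of 0.51, 0.37 and -0.40), while the stromal COL1A1 was not called. Their part in the results on the subunit genes was not tested.

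Many nuclear genes for respiratory subunits have promoters that bind NRF1 (nuclear respiratory factor 1), GABP, a factor of the ETS family, or YY1. Windows from 250 bases before to 50 after the start (RefSeq, GRCh38.p14) were found for 62 of the 77 members and searched on both strands for exact letters. The NRF1 letters GCGCANGCG stood in 21 of the 62 windows (33.9%) against 8.05% of all 27305 promoter windows, the ETS letters CCGGAAG in 19 (30.6%) against 10.7%, and the YY1 letters ATGGCGGC in 11 (17.7%) against 3.21%. The 27305 windows were not limited to the genes measured here, so their shares are not of like genes. Split by the calls described next, NRF1 letters were found in 7 of 21 windows of members called higher, 4 of 5 called lower and 10 of 36 not called. The same split gave 7, 2 and 10 windows for the ETS letters and 4, 0 and 7 for the YY1 letters, which is a description of small numbers with no test. A match is not a binding site, and no match says only that these letters are not in the window.

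The 150 bases before the start are shown for 5 members, chosen since ATP5G1 and ATP5G2 encode the same mature protein and moved in opposite directions, and SDHD, UQCR11 and UQCRC1 are called members of complexes II and III with matches. Each runs 5′ to 3′ on the gene's strand, with letters of a searched motif in capitals. The ATP5G1 promoter (chr17:48892637-48892786, plus strand) held none of the motifs, and that of ATP5G2 (chr12:53676084-53676233, minus strand) held the NRF1 letters.
ATP5G1: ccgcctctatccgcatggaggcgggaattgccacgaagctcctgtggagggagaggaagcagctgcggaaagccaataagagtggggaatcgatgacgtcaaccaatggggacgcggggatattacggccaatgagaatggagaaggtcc
ATP5G2: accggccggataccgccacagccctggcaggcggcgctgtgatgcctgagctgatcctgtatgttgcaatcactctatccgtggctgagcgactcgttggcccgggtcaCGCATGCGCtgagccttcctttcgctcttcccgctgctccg
SDHD: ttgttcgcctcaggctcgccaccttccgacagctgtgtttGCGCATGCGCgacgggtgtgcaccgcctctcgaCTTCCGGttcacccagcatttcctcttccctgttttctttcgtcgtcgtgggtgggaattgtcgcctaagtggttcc
UQCR11: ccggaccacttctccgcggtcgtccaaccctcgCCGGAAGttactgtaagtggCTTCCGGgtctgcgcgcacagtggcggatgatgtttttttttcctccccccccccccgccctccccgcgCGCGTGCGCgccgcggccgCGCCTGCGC
UQCRC1: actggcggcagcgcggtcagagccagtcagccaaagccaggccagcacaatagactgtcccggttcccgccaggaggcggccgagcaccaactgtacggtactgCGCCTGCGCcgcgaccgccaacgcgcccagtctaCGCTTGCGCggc
For SDHD (chr11:112086723-112086872, plus strand) the capitals mark 2 overlapping NRF1 matches, followed by an ETS match on the other strand. UQCR11 (chr19:1605463-1605612, minus strand) held ETS matches on both strands and then 2 NRF1 matches close to the start. In UQCRC1 (chr3:48609647-48609796, minus strand) both capital stretches are NRF1 letters.

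Subunit genes moved little, and more of them up than down. Of the 77 members, 27 were called higher (35.1%), 7 lower (9.09%) and 43 were not called, beside 23.3% and 24.5% over all genes. Without a variance trend in the fit, 10 were higher and 5 lower. The counts given below for complexes and other lists are to be read beside the same shares over all genes, 23.3% higher and 24.5% lower. None of the called members changed 2-fold. The median difference was 0.07 on the log2 scale, against 0.0015 over all genes, and the median size of the difference regardless of sign was 0.12, against 0.27. Among the 5494 genes at least as abundant as the lower quartile of the members, 67.3% were called, 31.1% higher and 36.1% lower, and the median was -0.02. The 44.2% called among the members is a share over all 77, those below this abundance included, so it is not of like genes. Fostamatinib samples lay all above DMSO for 30 members and all below for 9, together a share that stands beside the 54.1% over all genes. Tested against a change of at least 1.2-fold, which 18.3% of all genes passed, 2 members were higher (NDUFB10 and NDUFA2) and 1 lower (ATP5G1).

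**Figure D1:**
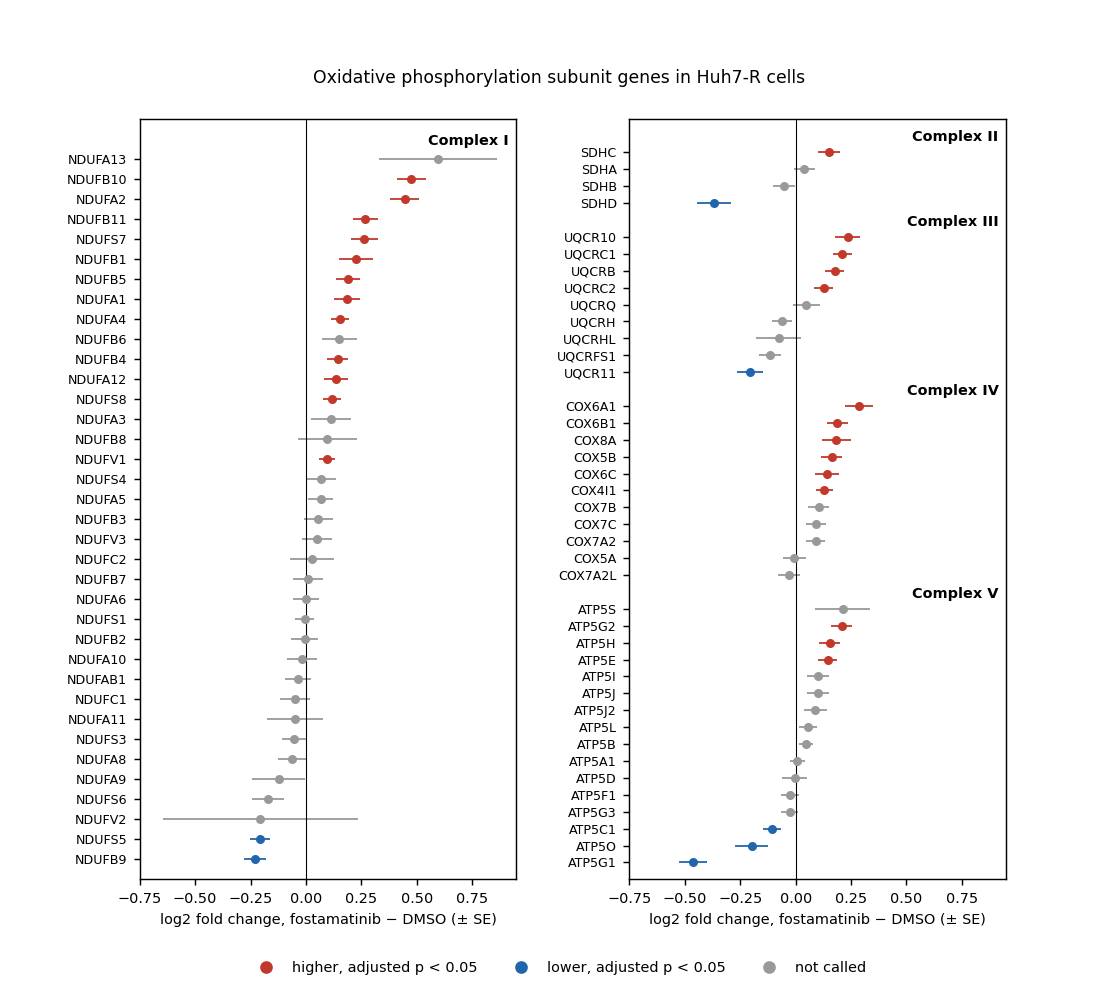
Log2 difference (fostamatinib minus DMSO) of 76 subunit genes, grouped by complex, with called rises in red, called falls in blue, genes not called in grey and bars of 1 SE. Most points lie between -0.3 and 0.3, with NDUFB10 and NDUFA2 highest and ATP5G1 lowest among the called genes; NDUFA13 and NDUFV2 have the widest bars.

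Complex I oxidizes NADH and passes the electrons to ubiquinone. 13 of its 37 members rose, 2 fell and 22 were not called, with a median difference of 0.07. NDUFB10, an accessory subunit of the membrane arm (chromosome 16, 2009539 to 2011976, plus strand, GRCh37), had 446, 549 and 525 reads with DMSO and 720, 665 and 601 with fostamatinib. The groups did not overlap, and the difference of 0.48 ± 0.066 (SE) was the largest rise called in any complex (adjusted p = 1.9e-07, limma). In bulk RNA such a difference can reflect less or more RNA per cell or a change in the share of cells that hold it, which cannot be told apart. NDUFA2, an accessory subunit of the arm that binds NADH, had 484, 511 and 455 reads with DMSO and 634, 665 and 561 with fostamatinib, a rise of 0.45 ± 0.066 (adjusted p = 6.9e-07). NDUFB11, in the membrane arm, came next with 774, 898 and 786 against 956, 994 and 835 reads (0.27 ± 0.057, adjusted p = 0.000174). Its groups overlap in reads but not in log2 CPM, since the samples differ in depth.

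Among the core subunits that carry flavin or iron-sulfur clusters, NDUFS7, NDUFS8 and NDUFV1 rose, by 0.26, 0.12 and 0.09. NDUFS8 was the most abundant complex I member per transcript length (340 CPM per kb with DMSO). NDUFS1, NDUFS3 and NDUFV2, also core subunits, had log2 differences of -0.0049, -0.06 and -0.21 and were not called. The accessory subunits NDUFB1, NDUFB5, NDUFA1, NDUFB4 and NDUFA12 rose by 0.14 to 0.23. NDUFA4, counted here by its symbol although its protein is a part of complex IV, rose by 0.15. NDUFB4 was called although its groups overlapped in log2 CPM. Several of these smaller rises depended on single libraries. Without fostamatinib replicate 2, NDUFB1, NDUFA1, NDUFB4, NDUFA12, NDUFS8 and NDUFV1 were not called (adjusted p of 0.0691, 0.0948, 0.14, 0.209, 0.0533 and 0.091), and without fostamatinib replicate 1, NDUFB4, NDUFA12, NDUFS8 and NDUFV1 were not (0.0547, 0.0685, 0.154 and 0.0836). Leaving out DMSO replicate 1 ended the calls of NDUFB4 and NDUFA12 (0.0591 and 0.0699), DMSO replicate 2 those of NDUFB1 and NDUFA12 (0.0773 and 0.121), DMSO replicate 3 those of NDUFS8 and NDUFV1 (0.0723 and 0.15), and fostamatinib replicate 3 that of NDUFV1 (0.0745). NDUFS7, NDUFB5 and NDUFA4 kept the call whichever sample was left out. In the limma fit without a variance trend, NDUFB5 and NDUFA4 lost it (adjusted p of 0.0855 and 0.0532), and NDUFS7 kept it (0.0411).

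2 accessory subunits of the membrane arm fell. NDUFB9 (chromosome 8) had 1428, 1517 and 1490 reads with DMSO and 1248, 1197 and 1111 with fostamatinib, a difference of -0.23 ± 0.049 (adjusted p = 0.000156). NDUFS5, on the side facing the intermembrane space (chromosome 1, 39491990 to 39500308), had 2105, 2299 and 2069 against 1842, 1810 and 1623 reads, a difference of -0.21 ± 0.047 (adjusted p = 0.000338). In both genes every fostamatinib sample lay below every DMSO sample. Other accessory subunits of the membrane arm rose: NDUFB10 and NDUFB11, and by less NDUFB1, NDUFB4, NDUFB5 and NDUFA1.

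Of the 22 complex I members not called, the most abundant was NDUFS1 with 2093, 2207 and 2276 reads against 2080, 2156 and 1929. NDUFA5, NDUFS3, NDUFAB1 and NDUFB2 followed, with log2 differences of 0.07, -0.06, -0.04 and -0.0053. The others were NDUFA3, NDUFA6, NDUFA8, NDUFA9, NDUFA10, NDUFA11, NDUFA13, NDUFB3, NDUFB6, NDUFB7, NDUFB8, NDUFC1, NDUFC2, NDUFS4, NDUFS6, NDUFV2 and NDUFV3. NDUFS6, a subunit of the peripheral arm, lay close to the threshold at -0.17 ± 0.073 (adjusted p = 0.0511) and passed it without DMSO replicate 3 (0.0227) or fostamatinib replicate 2 (0.0302). NDUFA13 had the largest difference of all members, 0.59 ± 0.27, on only 14, 30 and 25 against 32, 40 and 24 reads, and it was not called (adjusted p = 0.065), although it was without DMSO replicate 2 (0.0295) or fostamatinib replicate 3 (0.0381). NDUFV2, at 7, 8 and 11 against 8, 5 and 8 reads, was the lowest member, and its processed pseudogene NDUFV2P1 carried more of the reads (2.40 against -0.70 log2 CPM with DMSO). Both NDUFV2 and NDUFA13 share exon sequence on the same strand with another annotated gene, as do NDUFB8 and NDUFC2. Their levels thus depend on how such reads were counted. The same holds for called members, among them ATP5O, COX6A1, SDHD and UQCR11, with 15.52%, 13.07%, 11.43% and 11% of exon bases shared. The strand setting of the counting is not given, so overlap on the other strand may matter too. Among called members such overlap was 51.45% for NDUFS7, 24.51% for UQCR10 and 23.22% for ATP5E. NDUFB10 and ATP5G1 shared no exon bases on either strand. The count of complex I rises fell to 8 without fostamatinib replicate 1, and to 7 without fostamatinib replicate 2.

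**Figure D2:**
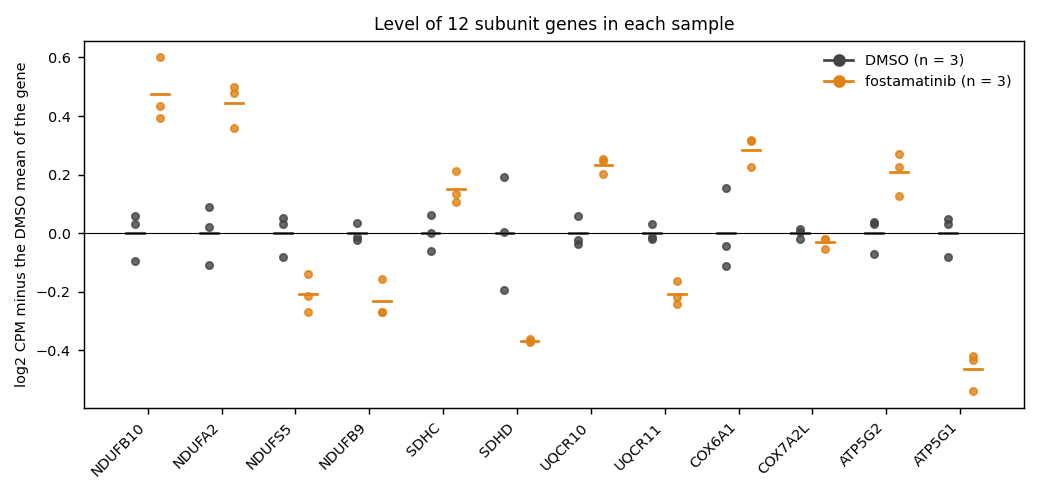
Log2 CPM of 12 subunit genes in each sample, plotted as the difference from the gene's DMSO mean, with 3 DMSO points (black), 3 fostamatinib points (orange) and group means as short lines. NDUFB10 and NDUFA2 lie higher with fostamatinib, SDHD and ATP5G1 lower, and within each of these genes the groups do not overlap, while for COX7A2L they do.

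Complex II, succinate dehydrogenase, links the tricarboxylic acid (TCA) cycle to the respiratory chain and is the 1 complex with no subunit from mitochondrial DNA. Its 2 membrane anchors moved in opposite directions. SDHD (chromosome 11, 111957548 to 111990739, plus strand, GRCh37) had 495, 478 and 609 reads with DMSO and 382, 398 and 367 with fostamatinib, and fell by 22.5% (-0.37 ± 0.076, adjusted p = 0.00013). The DMSO samples were spread (SD of 0.19 log2 CPM) while the fostamatinib samples lay within 0.01 of each other in SD. SDHC rose from 1325, 1534 and 1369 to 1424, 1589 and 1399 reads (0.15 ± 0.049, adjusted p = 0.00999), a call that was lost without fostamatinib replicate 2 (adjusted p = 0.0892).

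The catalytic subunits of complex II were not called. SDHA, the flavoprotein, had 1406, 1653 and 1522 reads with DMSO and 1530, 1506 and 1381 with fostamatinib (0.04 ± 0.047, adjusted p = 0.538). SDHB, the iron-sulfur subunit, was the most abundant of the complex per length (78.7 CPM per kb) and had 1083, 1235 and 1189 against 1051, 1089 and 1033 reads. Its fostamatinib samples all lay below the DMSO samples in log2 CPM, but by little (-0.05 ± 0.049, adjusted p = 0.39). With 4 members split 1 up and 1 down, the summed share of complex II in all reads was 0.0318% ± 0.00028 with DMSO and 0.0317% ± 0.00034 with fostamatinib (SD).

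Complex III passes electrons from ubiquinol to cytochrome c. 4 of its 9 members rose, 1 fell and 4 were not called. UQCRC1, a core protein of the matrix face (chromosome 3, 48636435 to 48648409, minus strand, GRCh37), had 1976, 2279 and 2060 reads with DMSO and 2298, 2292 and 2266 with fostamatinib, a rise of 0.21 ± 0.044 (adjusted p = 0.000125). UQCR10, a small subunit next to cytochrome c1, rose by 0.23 ± 0.057, from 637, 746 and 680 to 766, 797 and 716 reads (adjusted p = 0.000819). UQCRB, which contacts the ubiquinone site, rose by 0.18 ± 0.043 (adjusted p = 0.000834), and the core protein UQCRC2 by 0.13 ± 0.043 (adjusted p = 0.015).

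UQCR11, the smallest subunit of complex III (chromosome 19, 1597168 to 1605472, minus strand, GRCh37), fell from 664, 733 and 739 to 598, 586 and 554 reads, by 0.21 ± 0.059 on the log2 scale (adjusted p = 0.00361). UQCRFS1, the Rieske iron-sulfur protein, stood lower in every fostamatinib sample too, at 1154, 1264 and 1303 against 1129, 1106 and 993 reads, but just missed the threshold (-0.12 ± 0.051, adjusted p = 0.0577). It passed with library size alone as the scaling (adjusted p = 0.0373), which gives 4 rises and 2 falls, and without fostamatinib replicate 1 (adjusted p = 0.0306). UQCRQ and UQCRH, the hinge protein and the most abundant member per length (340 CPM per kb), were not called (0.05 and -0.06). Nor was UQCRHL (-0.08), whose 147 to 186 reads cannot be told apart with certainty from those of UQCRH.

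Complex IV, cytochrome c oxidase, reduces oxygen. 6 of its 11 members were higher and 0 lower by limma (9 and 0 at an unadjusted p under 0.05, 6 and 0 with limma-voom), and the median difference was 0.13. The number higher was 9 with upper-quartile scaling, 1 without a variance trend and 4 to 7 with a sample left out. COX6A1 (chromosome 12, 120875893 to 120878540, plus strand, GRCh37) rose most, from 663, 884 and 749 to 889, 923 and 806 reads (0.29 ± 0.061, adjusted p = 0.000186). COX6B1, which joins the monomers of the enzyme, rose by 0.19 ± 0.048 (1974, 2263 and 1914 against 2235, 2312 and 2029 reads, adjusted p = 0.00133). COX4I1, the isoform of subunit IV used in most tissues and the most abundant member per length (445 CPM per kb), had 4729, 5307 and 4863 against 5254, 5320 and 4749 reads, a rise of 0.13 ± 0.038 (adjusted p = 0.00475). Reads of these genes overlap between groups, and their log2 CPM values do not.

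COX5B, which holds a zinc ion, rose by 0.16 ± 0.046 (adjusted p = 0.00362). Less firm were COX8A and COX6C, small membrane subunits whose groups overlapped. COX8A (0.18 ± 0.064, adjusted p = 0.0173) had 35.4% of its exon bases in common with another gene on the same strand and lost the call without DMSO replicate 1 (adjusted p = 0.101), DMSO replicate 3 (0.0846) or fostamatinib replicate 1 (0.0761). COX6C (0.14 ± 0.056, adjusted p = 0.0344) lost it without DMSO replicate 1 (0.148), DMSO replicate 2 (0.0696) or fostamatinib replicate 2 (0.347). Of the members not called, COX7C, COX7B and COX7A2 stood at 0.09, 0.10 and 0.09 with adjusted p of 0.0814, 0.0698 and 0.0876 (each called in 1 of the 6 fits with a sample left out), and COX5A and COX7A2L at -0.006 and -0.03. COX7A2L, a paralog of COX7A2 known for its role in joining complexes III and IV, accounted for 34.7%, 32.7% and 33.3% of the reads of the pair with DMSO and 31.6%, 31.1% and 32.4% with fostamatinib. The groups did not overlap, and the exact permutation test gave p = 0.1, the lowest that 3 against 3 samples allow.

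Complex V joins a catalytic head to a ring of subunit c in the membrane. It had 3 of 16 members higher (18.75%), 3 lower (18.75%) and 10 not called, beside 23.3% and 24.5% over all genes. ATP5G1 (now ATP5MC1, chromosome 17, 46970127 to 46973233, plus strand, GRCh37), one of the genes for subunit c, had 697, 763 and 687 reads with DMSO and 499, 480 and 485 with fostamatinib, and fell by 27.4% (-0.46 ± 0.063, adjusted p = 1.28e-07), the largest fall of all members. ATP5G2 (now ATP5MC2, chromosome 12, 54026510 to 54071192, minus strand, GRCh37), another of these genes, rose from 1540, 1714 and 1547 to 1814, 1821 and 1583 reads (0.21 ± 0.048, adjusted p = 0.000447). ATP5G3, the most abundant of them, had 3423, 3747 and 3738 against 3426, 3426 and 3206 reads and was not called (-0.03 ± 0.038, adjusted p = 0.582).

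ATP5G1, ATP5G2 and ATP5G3 encode the same mature subunit c behind different import sequences. Summed over them, subunit c stood at 407 ± 4.5 CPM with DMSO and 406 ± 10.2 with fostamatinib (SD, n = 3). The share of ATP5G1 in these reads was 12.3%, 12.3% and 11.5% with DMSO and 8.70%, 8.38% and 9.20% with fostamatinib, that of ATP5G2 27.2%, 27.5% and 25.9% against 31.6%, 31.8% and 30.02%. ATP5G3 made up 61.1% ± 1.3 and 60.1% ± 0.60. The shares of ATP5G1 fell by 3.27 percentage points and those of ATP5G2 rose by 4.26, both without overlap and both at p = 0.1, the smallest value of an exact two-sided permutation test here, and for ATP5G3 the difference of -0.99 points gave p = 0.3. With Benjamini-Hochberg adjustment over the 4 shares compared, that of COX7A2 included, the permutation p-values of 0.1 become 0.133. The sum of the ATP5G genes moved by -0.0043 on the log2 scale, which is less than the spread between samples.

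**Figure D3:**
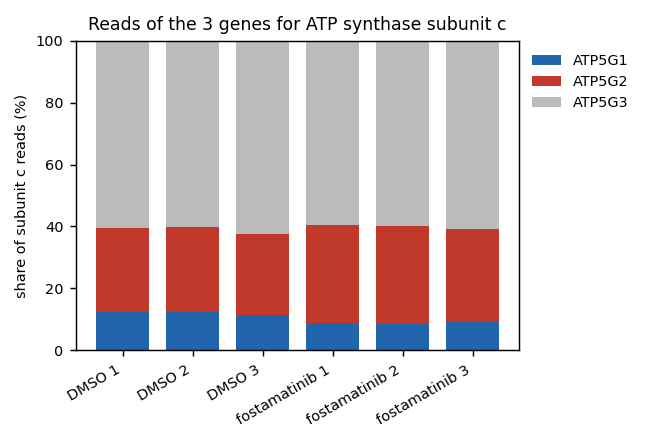
Share in percent of the reads on ATP5G1 (blue), ATP5G2 (red) and ATP5G3 (grey), the genes for subunit c of ATP synthase, stacked to a full bar in each of 3 DMSO and 3 fostamatinib samples. The ATP5G1 share is near 12% in all DMSO samples and 8.38% to 9.20% with fostamatinib, and the ATP5G2 share is higher in each fostamatinib sample.

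Other called members of complex V belonged to its stalks and head. ATP5H (subunit d of the stator stalk) had 1222, 1335 and 1322 against 1402, 1387 and 1270 reads (0.15 ± 0.048, adjusted p = 0.00739), and ATP5E (epsilon, in the central stalk) 2622, 3033 and 2880 against 3111, 3073 and 2689 (0.14 ± 0.042, adjusted p = 0.00498). Both rises lost the call without fostamatinib replicate 1 (adjusted p = 0.0549 for ATP5H and 0.0637 for ATP5E). ATP5O, the stator protein on top of the head, had 382, 485 and 463 against 374, 364 and 346 reads (-0.20 ± 0.073, adjusted p = 0.0229), and ATP5C1, the rotating gamma subunit, was lower by 0.11 ± 0.040 (adjusted p = 0.0272).

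Both falls depended on single libraries. ATP5O was no longer called without DMSO replicate 2 (adjusted p = 0.105), DMSO replicate 3 (0.0592), fostamatinib replicate 2 (0.086) or fostamatinib replicate 3 (0.0611), and ATP5C1 without DMSO replicate 3 (0.0715), fostamatinib replicate 1 (0.112) or fostamatinib replicate 3 (0.13). With upper-quartile scaling, which moves the median of all genes by 0.035, complex V had 6 members higher and 1 lower. ATP5B, the catalytic beta subunit and the most abundant member of any complex per length (679 CPM per kb), had 16453, 18497 and 17485 against 17544, 17298 and 16068 reads, 0.05 ± 0.032 apart and not called (adjusted p = 0.243), and the alpha subunit (ATP5A1) was at 0.0075. ATP5L, ATP5F1, ATP5D, ATP5I, ATP5J, ATP5J2 and ATP5S were not called either, at -0.03 to 0.21.

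Summed over their genes, the complexes had shares of all reads whose ratios (fostamatinib to DMSO) ran from 0.999 to 1.08. The 77 genes together took 0.815%, 0.816% and 0.799% of the reads with DMSO and 0.854%, 0.844% and 0.819% with fostamatinib, a ratio of 1.04. The highest ratio was that of complex IV (1.08), where shares of 0.131%, 0.133% and 0.128% rose to 0.143%, 0.142% and 0.136%. Complexes I, II, III and V had ratios of 1.05, 0.999, 1.04 and 1.01. As shares of all reads, the groups did not overlap for complexes III and IV, and did for complexes I, II and V. That overlap depended on the total used. Without mitochondrial genes and the 10 most abundant genes in it, the groups overlapped for none of the complexes. For complex I the highest DMSO share was then 0.264% and the lowest fostamatinib share 0.271%. For complex II they lay next to each other, at 0.03504% and 0.03505%. Since the most abundant genes dominate such sums, these ratios say little of the small members.

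Subunit transcripts are short, with a median canonical length of 784 bases (76 members with a length) against 3108 over 13117 genes. Length and difference were nearly unrelated across those genes (Spearman's rho of -0.021, a description across genes). Among genes of at most 1000 bases, all 1321 had a median difference of 0.01 and the 43 members among them 0.10. In the bins above 1000, 2000 and 4000 bases the 14, 10 and 8 members had medians of 0.05, 0.03 and 0.03, beside 0.01, -0.01 and -0.02 over all genes there. These lengths, and the values per length given above, rest on the annotated canonical transcript, which has 8459 bases for UQCRB. Whether the cells express that transcript was not tested.

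The subunits encoded by mitochondrial DNA rose nearly throughout. Of 13 genes, 12 were called higher (92.3%, beside 23.3% over all genes) and 0 lower, with a median of 0.31. By the test against 1.2-fold 4 were higher. In complex I, MT-ND5 rose from 55347, 67922 and 66338 to 84059, 82667 and 76748 reads (0.45 ± 0.035, adjusted p = 2.14e-13), MT-ND1 by 0.37 and MT-ND4 by 0.36. MT-CYB, the cytochrome b of complex III, had 40545, 50630 and 46810 against 61228, 57989 and 55119 reads (0.43 ± 0.036, adjusted p = 3e-12). MT-CO1, MT-CO2 and MT-CO3, the catalytic core of complex IV, rose by 0.33, 0.31 and 0.21, and MT-ATP6 of complex V by 0.31. The smallest rises called were those of MT-ND2, MT-ND3 and MT-ATP8 (0.20, 0.18 and 0.17), and MT-ATP8, whose groups overlapped, lost the call without DMSO replicate 1 (adjusted p = 0.0621).

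MT-ND6, the 1 protein gene on the other strand of the mitochondrial genome, had 1570, 1688 and 1619 reads against 1378, 1481 and 1614 (-0.04 ± 0.054, adjusted p = 0.591). It had the fewest reads of the 13 genes. Whether its strand or the poly(A) selection has a part in its difference was not tested. Together the 13 genes took 5.08%, 5.57% and 5.35% of all reads with DMSO and 6.72%, 6.50% and 6.63% with fostamatinib, a ratio of 1.24 where the nuclear genes had 1.04. The difference between these ratios was not tested. The mitochondrial ribosomal RNAs MT-RNR2 and MT-RNR1, looked at after the other values were seen, were higher as well (0.65 and 0.41), although poly(A) selection was used. Nuclear copies of mitochondrial genes are nearly identical in sequence to them, and 7 of 10 such rows were also called higher, among them MTATP6P1 and MTCO1P12, so the assignment of these reads is uncertain.

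**Figure D4:**
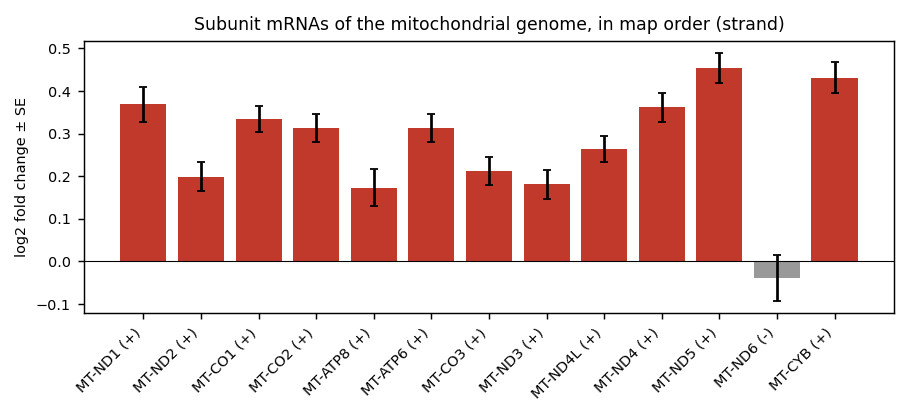
Log2 difference (fostamatinib minus DMSO, bars from 0, with 1 SE) of the 13 subunit genes of the mitochondrial genome in map order, with the strand in brackets and genes not called in grey. All but MT-ND6 lie above 0, from 0.17 for MT-ATP8 to 0.45 for MT-ND5.

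Of 6 further subunits and carriers whose symbols the rule did not take, 1 was higher and 4 lower. CYCS, the mobile electron carrier cytochrome c, went from 3474, 3449 and 3989 to 1968, 1993 and 1773 reads and fell by 44.1% (-0.84 ± 0.048, adjusted p = 9.37e-17). CYC1, cytochrome c1 of complex III, had 1190, 1438 and 1150 against 1057, 1016 and 1016 reads (-0.19 ± 0.058, adjusted p = 0.00516), a call lost without DMSO replicate 2 (adjusted p = 0.0798) or fostamatinib replicate 2 (0.0548). USMG5, a small subunit of ATP synthase, fell by 0.34 ± 0.051 (adjusted p = 7.02e-07), and ATPIF1, which inhibits the enzyme when it runs backwards, rose by 0.48 ± 0.048 (1039, 1149 and 1096 against 1467, 1495 and 1352 reads, adjusted p = 1.53e-10). NDUFA4L2, a paralog of NDUFA4 known to respond to hypoxia, had 9, 17 and 10 reads with DMSO and 1, 1 and 4 with fostamatinib (adjusted p = 0.000769). C14orf2, another small subunit of ATP synthase, was not called at 0.18 ± 0.078 (adjusted p = 0.0528), and passed with median-ratio size factors or upper-quartile scaling, which gives 2 higher and 4 lower.

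Assembly factors, which build the complexes without staying in them, were 9 of 57 higher (15.8%) and 23 lower (40.35%), with a median of -0.06. Over all genes the shares were 23.3% and 24.5%. For complex I, 2 of 18 were higher and 8 lower, with NDUFAF4 at 350, 404 and 331 against 193, 209 and 191 reads (-0.78 ± 0.086, adjusted p = 1.67e-09) and NDUFAF3 at 382, 372 and 344 against 507, 487 and 463 (0.50 ± 0.073, adjusted p = 6.27e-07). NDUFAF2 fell by 0.64 and NDUFAF1 rose by 0.46. For complex IV, 5 of 25 were higher and 12 lower. COA7 was the lowest of them (743, 850 and 800 against 397, 467 and 418 reads, -0.81 ± 0.063, adjusted p = 3.34e-13), followed by COX20 (-0.49), and SURF1 and COA3 were the highest (0.38 and 0.37). For complexes II, III and V the counts were 1 higher of 4 (SDHAF4, 0.45), 2 lower of 6 (UQCC3 and TTC19, -0.42 and -0.17) and 1 each way of 4 (ATPAF2 and TMEM70, 0.26 and -0.41). TTC19 lost the call without DMSO replicate 1, DMSO replicate 2, fostamatinib replicate 2 or fostamatinib replicate 3 (adjusted p of 0.188, 0.0901, 0.0579 and 0.224), and ATPAF2 without DMSO replicate 1, fostamatinib replicate 1 or fostamatinib replicate 2 (0.0757, 0.059 and 0.101).

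**Figure D5:**
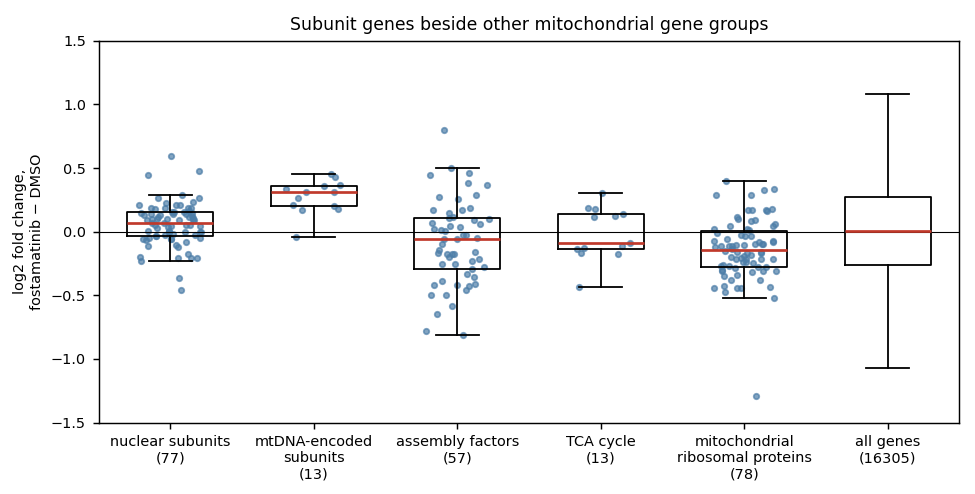
Log2 differences (fostamatinib minus DMSO) of the 77 nuclear subunit genes, the 13 mtDNA-encoded subunits, assembly factors, TCA cycle enzymes, mitochondrial ribosomal proteins and all genes, as boxes (quartiles, median in red, whiskers to the last gene within 1.5 box heights) with single genes as points; points are left out for all genes. The medians are 0.07 for the nuclear subunits, 0.31 for the mtDNA-encoded ones, -0.06 for assembly factors and -0.14 for mitochondrial ribosomal proteins.

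Of 14 regulators of these genes, 3 were higher (21.4%) and 7 lower (50%), beside 23.3% and 24.5% over all genes. PPARGC1A, the coactivator PGC-1alpha that drives mitochondrial gene programmes, rose from 47, 55 and 67 to 90, 121 and 90 reads (0.92 ± 0.16, adjusted p = 8.16e-06). Its relatives PPARGC1B and PPRC1 fell, by 1.07 and 0.62. TFAM, which packages and transcribes mitochondrial DNA, fell from 1035, 1183 and 1443 to 755, 782 and 715 reads (-0.60 ± 0.065, adjusted p = 1.18e-09). Lower TFAM transcripts thus stood beside higher transcripts of 12 genes of that genome. NRF1 (0.02 ± 0.084, adjusted p = 0.879) and GABPA (-0.05 ± 0.079, adjusted p = 0.6), a factor and the DNA-binding subunit of a factor for the motifs above, were not called, while GABPB1, the partner subunit of GABPA, fell by 0.47 ± 0.077 (adjusted p = 4.51e-06). ESRRA, a nuclear receptor that works with PGC-1alpha, stood at -0.23 ± 0.065 (adjusted p = 0.00421, and 0.0502 without fostamatinib replicate 3). ESRRG was called on very few reads, 2 in all with DMSO and 17 with fostamatinib (ratio of 9.04, 95% exact interval of counting error 2.15 to 80.7), and was not called without fostamatinib replicate 2 (adjusted p = 0.0663) or 3 (0.0907). YY1 was called at 0.11, but in only 1 of the 6 fits with a sample left out. Counted without fostamatinib replicate 2 or without fostamatinib replicate 3, 1 regulator was higher.

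Around the respiratory chain, the enzymes of the TCA cycle gave 3 of 13 higher (23.1%) and 6 lower (46.15%), beside 23.3% and 24.5% over all genes. With upper-quartile scaling 4 were higher and 2 lower. OGDH rose by 0.19, and IDH3A and CS, citrate synthase, fell by 0.43 and 0.18. The count of falls was 3 without fostamatinib replicate 2 or without fostamatinib replicate 3. Of 12 genes around pyruvate dehydrogenase, which feeds the cycle, 4 were higher and 3 lower. PDK4, a kinase that switches the enzyme off, rose from 33, 30 and 38 to 145, 179 and 149 reads (2.30 ± 0.16, adjusted p = 8.23e-15) and its relative PDK2 by 0.85, while PDK1 fell from 816, 922 and 968 to 419, 456 and 447 (-0.94 ± 0.062, adjusted p = 4.03e-15). DLAT, the E2 component, fell by 0.40. Among 78 mitochondrial ribosomal protein genes, 8 were higher (10.3%) and 37 lower (47.4%), with a median of -0.14. In the same samples the nuclear subunit genes gave 27 higher and 7 lower of 77.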

How the data were processed

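RNA-seq was done on poly(A)-selected RNA of Huh7-R cells, 3 fostamatinib- and 3 DMSO-treated samples, grouped by their titles. HISAT alignment to hg19, featureCounts on GENCODE v.22, a filter on genes under 5 reads and TMM normalization were the authors' steps, and the values they deposited are log2 CPM (0.5 added to each count before the scaling). The strand setting of the counting is not given in the sources used here. All values (100%) converted back to reads within 0.05 of a whole number. Of the 16311 rows, 1 repeated ribosomal RNA gene was used once.

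For all 16305 genes a limma model (version 3.58.1, R 4.3.3; moderated with a mean-variance trend) had treatment as its only term, and p-values were adjusted after Benjamini-Hochberg. Read shares were compared by exact two-sided permutation tests. The scripts were tested on simulated data. Depth (13303451 to 15272737 reads) limits genes with few reads. Gene positions and canonical transcript lengths came from GRCh37 with GENCODE 44, promoters from RefSeq (GRCh38.p14). Software was Python 3.11.15 (numpy 2.4.6, pandas 2.3.3, scipy 1.17.1, matplotlib 3.10.9).

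The members and the other gene lists were chosen with earlier results of these data known. Genes named with values were, in each complex, up to 3 rises and 3 falls of the greatest size among called members, the SDH and isoform genes, the most abundant member per length and up to 5 abundant members not called; in the other lists, 2 rises and 2 falls with CYC1, CYCS, PPARGC1A, NRF1, GABPA, ESRRA and TFAM. Some genes that meet this rule are not reported here. Any further gene was named after its values were seen. Alternatives were a voom fit of the recovered reads, no variance trend, a test against 1.2-fold, median-ratio, library-size and upper-quartile scaling, 2 stricter filters, 2 added to each count, the replicate number as a block and each sample left out in turn.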

Additional observations from a re-analysis of the deposited data

How the results depend on the processing

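No called gene among the members and lists changed direction under the alternatives run. Of the 34 called members, 14 kept the call under every alternative but the test against 1.2-fold, and 20 lost it under at least 1. Fits without a trend shared 1 variance prior over genes of all abundances and gave 10 members higher and 5 lower (4 higher in complex I, 0 in complex II, 1 in complex IV), 1 lower in complex V and 2 TCA enzymes lower. Against 1.2-fold, 2 members were higher and 1 lower (complex I 2 and 0, complex II 0 and 0, complex III 0 and 0, complex IV 0 higher, complex V 0 and 1), with 4 mtDNA-encoded subunits higher, assembly factors 1 higher and 9 lower, TCA enzymes 0 and 1, 2 lower outside the symbol rule, mitochondrial ribosomal proteins 0 and 6, and all genes 1386 and 1591. Upper-quartile scaling gave complex V 6 higher and 1 lower, 2 TCA enzymes lower, 2 higher outside the rule, and medians of 0.10 for complex I, 0.027 for complex II (-0.0079 as reported) and 0.17 for complex IV, where the median over all genes shifted by 0.035. Median-ratio factors gave 2 higher outside the rule, and library size alone and the filter of 10 reads gave 2 lower in complex III. Without mitochondrial genes and the 10 most abundant genes in the total, the summed ratios were 1.06 for all members and 1.07, 1.02, 1.07, 1.105 and 1.04 for complexes I to V. The causes were not tested.

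With 1 sample left out at a time, complex I had 7 to 13 higher, complex II 0 to 1 higher, complex III 1 to 2 lower, complex IV 4 to 7 higher, complex V 1 to 4 higher and 1 to 3 lower, regulators 1 to 3 higher, TCA enzymes 3 to 5 lower, genes outside the rule 1 to 2 higher and mitochondrial ribosomal proteins 5 to 8 higher. The lowest of these values came without fostamatinib replicate 2 for complexes I and II, without fostamatinib replicate 1 for rises in complex V, without DMSO replicate 3 or fostamatinib replicate 3 for falls in complex V, and without fostamatinib replicate 2 for the ribosomal proteins. The lone sets of 2 samples were fitted with the spread pooled over both groups. Same-numbered samples did not deviate together (r of 0.028, -0.019 and 0.013 over 13287 genes). The values thus gave no sign of pairing by replicate number, which so few samples cannot settle. With the replicate block, 28 members were higher and 8 lower, NDUFA13 and NDUFS6 gaining the call (adjusted p = 0.0471 and 0.0434).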
